A study of Mus musculus with 15 samples.

Results

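The spleens described here came from mice that had radiation combined with burn injury (RCI) and were then treated with vesicles that mesenchymal stem cells release (MSC-EVs), and they were set against spleens of uninjured Sham mice. The samples were chosen by their titles, 3 labelled RCI with MSC-EVs and 3 labelled Spleen Sham, which are 6 of the 15 samples of the series. All 547 endogenous genes of the 561 on the panel were considered, the other 14 being reference genes. The question was which immune genes still differed from Sham after the vesicles.

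The mice were female C57BL/6J young adults. RCI mice were anaesthetised, given morphine, burned over 20% of the total body surface area, resuscitated with fluid and irradiated with 9 Gy to the whole body within the hour. Sham mice, by the study's methods, went through the procedure without burn or irradiation. The treated mice received 1e+10 MSC-EVs by vein 72 h after injury, and their spleens were taken 48 h later. The vesicles were prepared from cultured mouse mesenchymal stem cells. The study describes saline as the alternative to vesicles, also after sham injury, but the labels give no vehicle for the Sham samples. Radiation, burn and vesicles differ together between the 2 groups, and their parts in a difference from Sham cannot be told apart. Values of the untreated RCI group, with 3 samples of its own, are therefore given beside some results. All groups were processed alike: a cell suspension was made, red blood cells were lysed, and total RNA was extracted.

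The spleen holds B cell follicles, T cell zones, and a red pulp in which macrophages clear old red cells and blood-borne particles. Resting lymphocytes die readily by p53-driven apoptosis after ionising radiation, with B cells among the most sensitive, whereas tissue macrophages and stromal cells are comparatively resistant. Neutrophils are short-lived and depend on continued supply from the bone marrow. MSC-EVs are membrane particles that carry proteins and RNA from the stem cells that shed them. In RNA from a whole spleen suspension, fewer cells of a type and less RNA per cell cannot be told apart.

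The assay was the nCounter Mouse Immunology Panel, which counts colour-coded barcodes on probes bound to each mRNA, with no amplification. A scaled count below is the deposited count divided by a sample factor taken from the geometric mean of the 14 reference genes. Total counts were 301141 to 406360 in RCI+MSC-EVs and 179472 to 509621 in Sham. Among the 3 Sham samples, replicate 2 stood apart. It had the lowest total and a reference factor of 0.408, against 0.731 when the factor was taken from the endogenous genes by TMM scaling. Neutrophil markers were 9.91% of its endogenous counts, against 2.03% in Sham replicate 1 and 6.93% in replicate 3, and NK cell markers were 0.912%, against 0.294% and 0.399%. Where the call of a gene described below changes without this sample, or its value moves by over 1.5-fold, the value without it is given beside the gene. Nothing in the labels settles whether the 3 samples of a group were 3 mice, so p-values measure the spread between these samples, which may be in part technical.

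Marker genes of the spleen's main cell types were detected in every Sham sample. Of the 5 B cell markers, the summed scaled counts were 15067 to 16233 in Sham and 679.6 to 1068 in RCI+MSC-EVs. The 5 T cell markers summed to 4478 to 8729 in Sham and 1740.0 to 2208 in RCI+MSC-EVs, and the 5 neutrophil markers to 7134 to 40386 and 1901 to 3725. In the other direction, the 4 macrophage markers summed to 1223 to 2303 in Sham and 8736 to 10854 in RCI+MSC-EVs. The 2 platelet or megakaryocyte markers summed to 363 to 1213 and 2272 to 4739. The 4 NK cell markers summed to 1035 to 3714 in Sham and 359 to 574 in RCI+MSC-EVs, and the 4 stromal markers, which include *Cxcl12* and *Cxcl13*, to 123 to 491 and 762 to 857. The 3 mast cell or basophil markers were at low levels, 26.9 to 38.9 and 41.5 to 57.1. The sums of these 8 lists did not overlap between the groups, but 70.4% of single tested genes did not either. The 3 endothelial markers did overlap, at 934 to 2376 in Sham and 1193 to 1720 in RCI+MSC-EVs. Members did not always move alike. Of the 3 stromal markers with enough counts to test, 1 was called higher (*Cxcl12*) and 2 were not called. No mast cell or basophil marker had enough counts to test. In that list the mean of *Kit* was lower in RCI+MSC-EVs (12.1) than in Sham (19.8), while *Fcer1a* (20.4 against 6.61) and *Il4* (14.5 against 7.29) were higher. How far these shifts in marker level account for the differences of other genes was not tested.

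**Figure D1:**
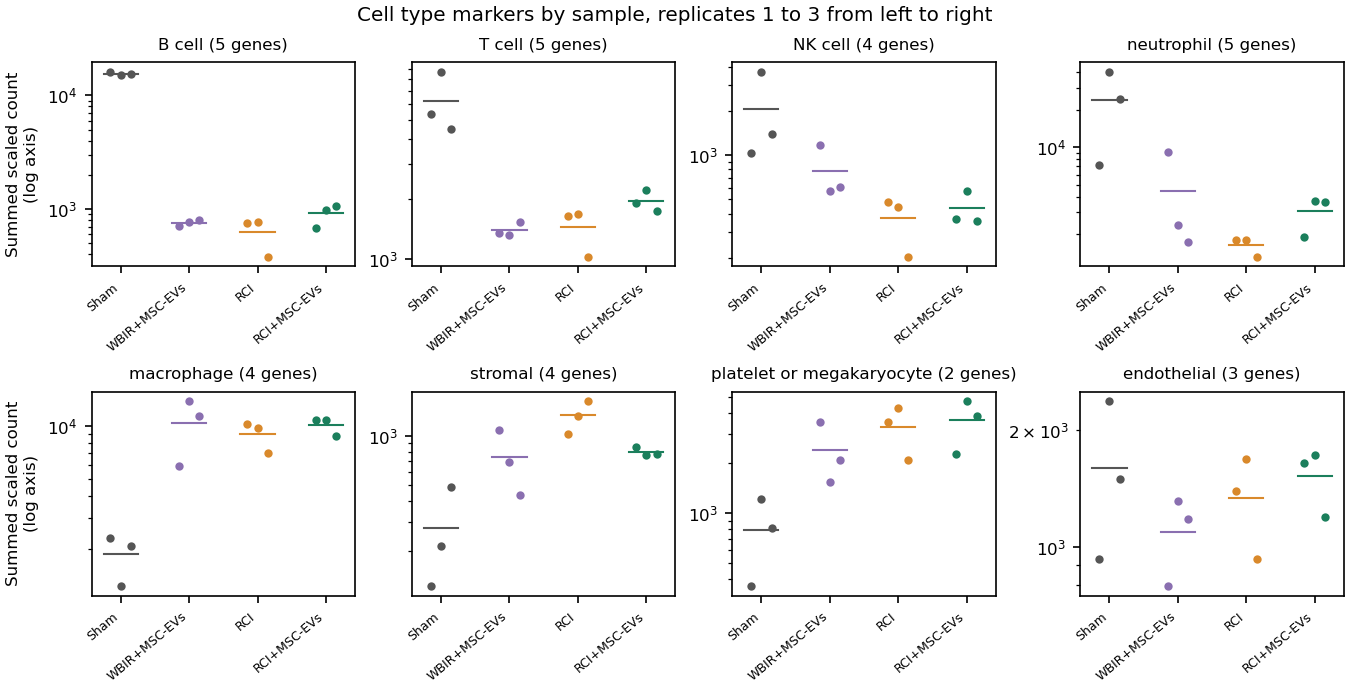
Summed scaled counts (log axis) of the cell type markers in each sample of Sham, WBIR+MSC-EVs (irradiated and vesicle-treated), RCI and RCI+MSC-EVs, with points for replicates 1 to 3 and a line for the mean. B cell, T cell and neutrophil markers of RCI+MSC-EVs lie below all Sham samples and macrophage and platelet markers above, and Sham replicate 2 is the highest Sham sample for T cell, NK cell and neutrophil markers.

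Of the 426 genes with enough counts to test, 278 differed between RCI+MSC-EVs and Sham in edgeR's quasi-likelihood test at an adjusted p under 0.05, which is 65.3% of those tested. They divided into 102 higher (23.9%) and 176 lower (41.3%) genes. The 3 samples of RCI+MSC-EVs lay all above or all below the 3 Sham samples in 300 genes (70.4%), above in 120 (28.2%) and below in 180 (42.3%). A value after ± is the standard error (SE) of the fit, and each group has 3 samples. The changes were large: 91 of the higher and 148 of the lower genes moved at least 2-fold, 16 and 32 moved at least 8-fold, and 1 in each direction moved at least 32-fold. The median log2 fold change (log2FC) of all tested genes was -0.45, and this centre depended on the scaling. Under TMM scaling it moved by 0.37 to -0.08, and the calls became 137 higher and 149 lower. Of the 278 calls, 251 were shared by both scalings, 27 lower calls were lost, 35 genes were gained as higher, and no gene was called in opposite directions. Among the 14 reference genes, 5 differed over 2-fold between the groups, with *Tubb5* at a log2 difference of -2.71 and *G6pdx* at 3.05.

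**Figure D2:**
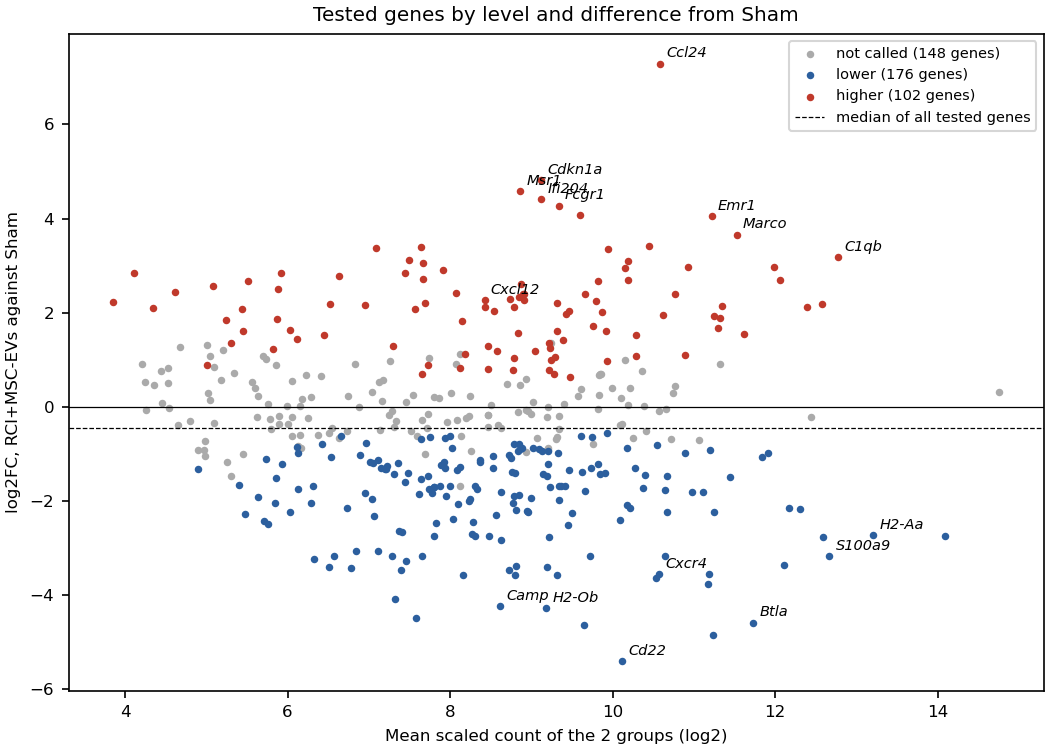
log2FC of RCI+MSC-EVs against Sham for each of the 426 tested genes, by the mean scaled count of the 2 groups (log2). The 102 higher genes reach 7.29 (*Ccl24*) and the 176 lower genes reach -5.40 (*Cd22*), and differences of both signs occur over the whole range of levels.

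Genes were grouped into 26 lists by cell type or pathway, and 321 of the tested genes were in at least 1 list. Each list is described below by its counts and its median log2FC, to be read against 23.9% higher, 41.3% lower and a median of -0.45 over all tested genes. The lowest medians were those of the B cell (-3.50), MHC class II (-2.73) and neutrophil (-2.64) lists, and the highest those of the complement (2.43), Fc receptor (2.31) and macrophage (2.00) lists. Leaving out Sham replicate 2 changed neither count of any list by more than 2 genes.

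**Figure D3:**
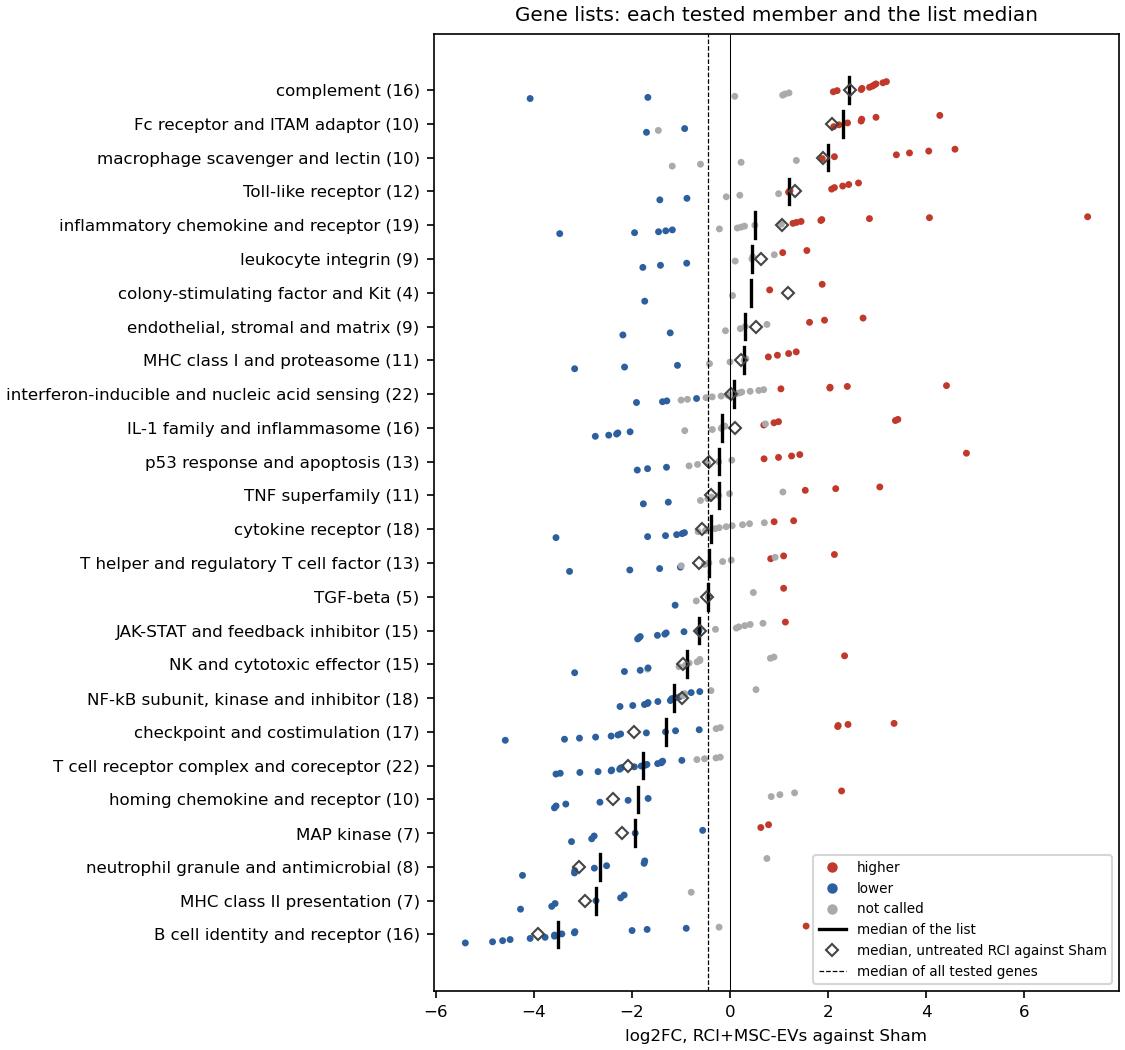
log2FC of RCI+MSC-EVs against Sham for each tested member of the 26 lists (number tested in brackets), with a bar at the list median and an open diamond at the median of untreated RCI against the same Sham samples. Medians run from -3.50 (B cell) to 2.43 (complement).

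B cell genes were the most reduced list. Of 16 tested, 14 were lower, 1 was higher and 1 was not called. *Cd22*, an inhibitory B cell receptor that binds sialic acid, had scaled counts of 1701, 3748 and 1039.8 in the 3 Sham samples and 42.0, 57.5 and 54.3 in the RCI+MSC-EVs samples. Every Sham sample was far above every RCI+MSC-EVs sample, and the fall was 42.2-fold (log2FC = -5.40 ± 0.50, edgeR adjusted p = 8.59e-07). *Pax5*, the transcription factor that holds B cell identity, was at 1103, 2472 and 1070.5 in Sham and 38.6, 77.0 and 71.3 in RCI+MSC-EVs (log2FC = -4.64 ± 0.60, edgeR adjusted p = 1.62e-05). Neither gene overlapped between the groups. The survival receptor for BAFF, *Tnfrsf13c*, fell by 4.48 on the log2 scale, the complement receptor *Cr2* by 4.08, and the receptor chain *Cd79b* by 3.77. Leaving out Sham replicate 2 changed *Cd22* to -4.74, and leaving out Sham replicate 1 changed *Tnfrsf13c* to -3.87. Not every member fell as far: *Btk*, a kinase that myeloid cells also use, had a log2FC of -0.89, and *Pou2f2*, which encodes the octamer factor Oct-2, was not called (-0.22, 95% interval -0.69 to 0.25). The single higher member was *Cd81*, a tetraspanin found on many cell types, at 2081, 1022 and 1701 in Sham and 4957, 5008 and 4122 in RCI+MSC-EVs (log2FC = 1.55 ± 0.35, edgeR adjusted p = 0.00141).

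T cell genes were lower too, but by less. Of 22 tested, 18 were lower, none was higher and 4 were not called, with a median of -1.77. *Il7r*, the receptor chain for the T cell survival cytokine IL-7, was at 3304, 5899.6 and 3688 in Sham and 322, 461 and 318 in RCI+MSC-EVs (log2FC = -3.55 ± 0.31, edgeR adjusted p = 5.88e-07). The coreceptor gene *Cd8a* was at 548, 1340.1 and 449 in Sham and 71.4, 87.4 and 52.1 in RCI+MSC-EVs (log2FC = -3.46 ± 0.42, edgeR adjusted p = 9.89e-06). In both genes all Sham samples lay above all RCI+MSC-EVs samples. *Cd4*, the coreceptor of helper T cells that some myeloid cells also express, was at 768, 1007 and 561 and 476, 524 and 458, also with no overlap, but did not pass the test (log2FC = -0.68 ± 0.29, edgeR adjusted p = 0.0504), though it was called lower without Sham replicate 3 (-0.87). The receptor chains *Cd3e* (-1.40), *Cd3d* (-1.73) and *Cd247* (-2.25) and the kinases *Lck* (-1.48) and *Zap70* (-2.22) all fell. *Tcf7* and *Lef1*, transcription factors of naive T cells, fell by 2.24 and 2.41. The members nearest to no difference were *Cd3eap* (-0.20), which despite its name encodes a subunit of RNA polymerase I, and the adaptor *Lcp2* (-0.29). *Lcp2* was at 102, 461 and 108 in Sham, so that replicate 2 lay far above the other Sham samples, and without that sample it was called higher (log2FC = 0.77, edgeR adjusted p = 0.00348). Without Sham replicate 2 the list held 16 lower and 1 higher call, and the fall was smaller but still called in *Cd8a* (-2.83), *Cd247* (-1.61), *Lef1* (-1.80) and *Zap70* (-1.23).

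Cytotoxic and NK cell genes were mixed. Of 15 tested, 4 were lower, 1 was higher and 10 were not called, with a median of -0.88. *Klrd1*, the CD94 chain of an NK receptor, was at 756, 2759 and 1044 in Sham and 121, 241 and 144 in RCI+MSC-EVs (log2FC = -3.17 ± 0.55, edgeR adjusted p = 0.000179). *Eomes*, a transcription factor of NK and memory T cells, fell by 2.15 with Sham replicate 2 and was not called without it (log2FC = -1.48, edgeR adjusted p = 0.0673). The pore-forming *Prf1* fell by 1.83. *Cd244*, a receptor of NK cells and also of some myeloid cells, was the higher gene, at 87.8, 299 and 83.7 in Sham and 706, 789.7 and 798 in RCI+MSC-EVs, with no overlap (log2FC = 2.33 ± 0.41, edgeR adjusted p = 0.000223). *Klrk1*, which encodes the receptor NKG2D, overlapped between the groups at 159.9, 615 and 249 and 215, 275 and 170.3 and was not called (-0.62, or 0.11 without Sham replicate 2). Leaving out Sham replicate 2 changed *Klrd1* to -2.42, *Prf1* to -1.21 and *Cd244* to 3.15, all still called. The Ly49 receptor genes of the *Klra* family are close relatives, and their probes may read more than 1 of them.

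Among 13 transcription and regulatory factors of helper and regulatory T cells, 4 were lower, 3 higher and 6 not called. *Runx3*, needed by CD8+ T cells and NK cells, was at 181, 595 and 185 in Sham and 27.7, 32.2 and 38.3 in RCI+MSC-EVs (log2FC = -3.27 ± 0.48, edgeR adjusted p = 4.50e-05), with a log2FC of -2.48 without Sham replicate 2. *Bcl6*, the factor of germinal centre B cells and follicular helper T cells, fell by 2.04. *Foxp3*, the lineage factor of regulatory T cells, overlapped between the groups at 100.2, 189 and 89.1 and 62.2, 105 and 92.6 and was not called (-0.52, 95% interval -1.32 to 0.27). *Maf*, a factor of both T cells and macrophages, rose from 122, 127 and 137 to 586, 599 and 503 (log2FC = 2.13 ± 0.26, edgeR adjusted p = 9.30e-06), and the cytokine gene *Tgfb1* rose by 1.09.

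Checkpoint and costimulatory genes split by direction. Of 17 tested, 11 were lower, 4 higher and 2 not called. *Btla*, an inhibitory receptor abundant on B cells, was at 4780.3, 5395 and 9344 in Sham and 252, 292 and 270.3 in RCI+MSC-EVs, a 24.0-fold fall (log2FC = -4.58 ± 0.31, edgeR adjusted p = 1.35e-07). The ligand of ICOS, *Icosl*, fell by 3.38, *Cd40*, the receptor through which T cells help B cells, by 3.07, and the T cell brake *Ctla4* by 2.74. The 4 higher genes are known from myeloid cells. *Lilrb4*, an inhibitory receptor of macrophages and mast cells, was at 49.7, 318 and 174 in Sham and 1534, 1847 and 1999 in RCI+MSC-EVs (log2FC = 3.34 ± 0.50, edgeR adjusted p = 5.34e-05), with a log2FC of 4.002 without Sham replicate 2. *Lair1*, a collagen-binding inhibitory receptor, rose by 2.40, and the CD28 ligands *Cd80* and *Cd86* by 2.20 and 2.20. *Cd274*, which encodes PD-L1, overlapped between the groups and was not called (-0.28, 95% interval -1.01 to 0.45).

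Genes of MHC class II presentation, by which B cells, dendritic cells and macrophages show peptides to CD4+ T cells, fell together in 6 of 7 tested. In mice the class II genes are transcribed through a shared promoter module of X and Y boxes, on which the coactivator encoded by *Ciita* acts. The promoters of 4 of the reduced genes are shown because the genes moved together. They were read from the RefSeq promoters of mouse assembly GRCm38.p6, as the gene's own strand from 5′ to 3′. Capitals mark the letters ATTGG, the core of the Y box, on that strand.
H2-Ob: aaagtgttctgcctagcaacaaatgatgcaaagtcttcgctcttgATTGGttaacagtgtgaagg
H2-Eb1: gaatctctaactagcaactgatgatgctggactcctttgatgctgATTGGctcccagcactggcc
H2-Aa: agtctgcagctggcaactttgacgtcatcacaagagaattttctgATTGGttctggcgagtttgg
H2-DMb2: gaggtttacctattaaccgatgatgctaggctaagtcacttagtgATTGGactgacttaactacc
The stretches lie at chr17:34238803-34238867 (plus strand), chr17:34305763-34305827 (plus strand), chr17:34287852-34287916 (minus strand) and chr17:34145114-34145178 (plus strand), each upstream of its transcription start. Promoters were on hand for 5 of the 7 tested genes. Both strands of the 300 bases around each start were searched. ATTGG was in all 5 promoters and in 37.4% of the 32851 promoters searched. The promoter not shown was that of *H2-DMa*, which was not called, with its match at positions -198 to -194 from the start. The matches describe the letters only.

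*H2-Ob*, a chain of the B cell regulator of peptide loading, was at 1163, 916 and 1237 in Sham and 41.2, 73.6 and 57.5 in RCI+MSC-EVs (log2FC = -4.27 ± 0.46, edgeR adjusted p = 3.39e-06). *H2-DMb2*, a chain of the peptide exchanger, was at 3299, 1509 and 3399 and 203, 213 and 245 (log2FC = -3.64 ± 0.36, edgeR adjusted p = 1.80e-06). *Ciita* itself was at 987, 635 and 847 and 60.5, 87.4 and 60.7 (log2FC = -3.57 ± 0.34, edgeR adjusted p = 1.20e-06). All Sham samples were above all RCI+MSC-EVs samples in each. The classical chains fell by less, *H2-Aa* by 2.73, *H2-Eb1* by 2.23 and *H2-Ab1* by 2.16. For *H2-Aa* the RCI+MSC-EVs samples were close together at 2578, 2500.1 and 2363, while Sham spread over 22434, 7169 and 19854. *H2-DMa*, the partner chain of the exchanger, was at 1212, 764 and 1307 in Sham and 686, 709 and 504 in RCI+MSC-EVs, apart but not called (log2FC = -0.79 ± 0.41, edgeR adjusted p = 0.1).

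MHC class I and proteasome genes showed no common direction, with 4 higher, 3 lower and 4 not called of 11. The peptide transporter *Tap1* fell by 2.15 and the class I heavy chain *H2-K1* by 1.07. The class I gene *H2-Q10* had a log2FC of -3.17, or -1.92 without Sham replicate 2, but its close relatives in the Q region leave the probe's target uncertain. Constitutive proteasome subunits rose, *Psmb7* by 1.35 and *Psmb5* by 1.19. *Psmb7* was at 270.03, 333 and 402 in Sham and 764, 806 and 994 in RCI+MSC-EVs. *B2m*, the light chain of class I, was at 27519, 20222 and 26353 and 29373, 32427 and 30709.6 and was not called (0.32).

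Receptors that guide lymphocytes were reduced, whereas the chemokines of the stroma were not. Of the 10 genes of the homing list, 6 were lower, 1 higher and 3 not called. *Cxcr4*, the CXCL12 receptor that retains cells in marrow and spleen, was at 2413, 2651 and 3373 in Sham and 164, 252 and 307 in RCI+MSC-EVs (log2FC = -3.55 ± 0.28, edgeR adjusted p = 3.55e-07). The follicle receptor *Cxcr5* fell by 3.58, the gut-homing receptor *Ccr9* by 2.65 and the T zone receptor *Ccr7* by 2.08. *Cxcl12*, the ligand of CXCR4, was the higher gene, at 72.1, 142 and 141 in Sham and 478, 625 and 602 in RCI+MSC-EVs, with no overlap (log2FC = 2.27 ± 0.48, edgeR adjusted p = 0.000881). *Ccl19*, a ligand of CCR7 made by T zone stroma, was at 14.1, 26.9 and 16.1 and 36.1, 48.3 and 51.1 and missed the threshold (log2FC = 1.32 ± 0.59, edgeR adjusted p = 0.0638). The follicle chemokine *Cxcl13* was likewise apart but not called (1.02). With TMM scaling 3 genes of this list were called higher.

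Neutrophil granule and antimicrobial genes were lower in 7 of 8. *Camp*, the antimicrobial peptide cathelicidin of neutrophil granules, was at 382, 586 and 1266 in Sham and 10.1, 11.5 and 97.9 in RCI+MSC-EVs. Replicate 3 of RCI+MSC-EVs was thus well above the other treated samples, though still below all Sham samples (log2FC = -4.23 ± 0.82, edgeR adjusted p = 0.000441). Without that sample the log2FC of *Camp* was -6.10, and without Sham replicate 3 it was -3.60. The calprotectin subunits were lower too: *S100a9* was at 2878, 19896 and 12357 in Sham and 740.1, 1533 and 1623 in RCI+MSC-EVs (log2FC = -3.17 ± 0.77, edgeR adjusted p = 0.0024), and *S100a8* fell by 2.77. The Sham values of both spread widely, lowest in replicate 1 and highest in replicate 2, and without replicate 2 the log2FC was -2.55 for *S100a9* and -2.16 for *S100a8*. *Cxcr2*, the receptor that draws neutrophils to CXC chemokines, fell by 3.17, or by 1.94 without Sham replicate 2, and *Ncf4*, a subunit of the phagocyte oxidase that B cells also express, by 2.52 with the tightest error of the list (SE 0.24). *Csf3r*, the G-CSF receptor, was called (log2FC = -1.74 ± 0.70, edgeR adjusted p = 0.0405) on Sham values of 112, 1188 and 189, with 1 library far above the rest, and without Sham replicate 2 it was not (log2FC = -0.04, edgeR adjusted p = 0.949). Leaving out any 1 of the RCI+MSC-EVs samples also ended its call, at -1.70, -1.84 and -1.69 for replicates 1, 2 and 3. *Cybb*, another oxidase subunit shared with macrophages, was not called (0.75), except as higher without Sham replicate 3 (0.99).

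**Figure D4:**
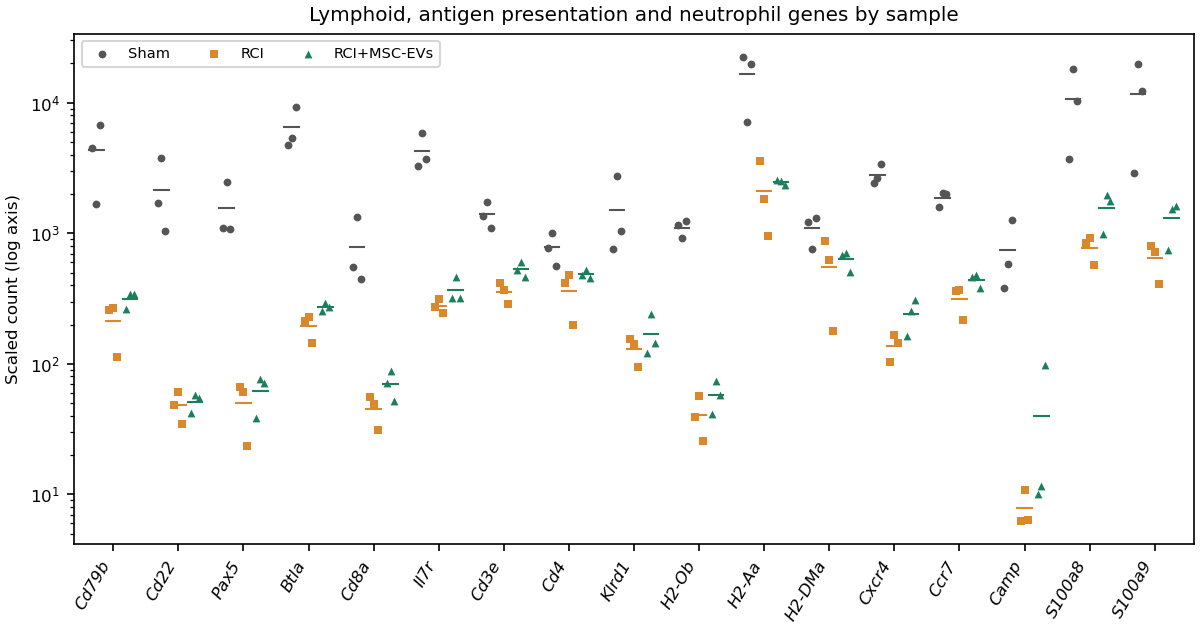
Scaled counts (log axis) of lymphoid, MHC class II, homing and neutrophil genes in each sample of Sham, untreated RCI and RCI+MSC-EVs, with a line at the mean. In all 17 genes the 3 RCI+MSC-EVs samples lie below the 3 Sham samples, with the widest spread among treated samples in *Camp*.

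Macrophage genes were higher. Of 10 scavenger receptor and lectin genes, 6 were higher, none was lower and 4 were not called, with a median of 2.00. *Emr1*, an older symbol for the gene of the macrophage surface protein F4/80, was at 261, 249.9 and 303 in Sham and 4615, 4451 and 4438 in RCI+MSC-EVs, a 16.6-fold rise with little spread in either group (log2FC = 4.05 ± 0.37, edgeR adjusted p = 8.26e-07). *Msr1*, the class A scavenger receptor, was at 34.8, 17.1 and 53.8 and 928, 1033 and 730.1 (log2FC = 4.59 ± 0.48, edgeR adjusted p = 2.71e-06). *Marco*, the scavenger receptor of marginal zone macrophages, was at 341, 404 and 551 and 3659, 4219 and 8513, highest in RCI+MSC-EVs replicate 3 (log2FC = 3.66 ± 0.70, edgeR adjusted p = 0.000419). *Pparg*, a lipid-sensing nuclear receptor of macrophages, was at 33.1, 36.7 and 34.6 in Sham and 302, 336 and 455 in RCI+MSC-EVs (log2FC = 3.39 ± 0.30, edgeR adjusted p = 7.05e-07). The LPS coreceptor *Cd14* rose by 2.13 and the M-CSF receptor *Csf1r* by 1.88. *Cd163*, the haemoglobin scavenger of red pulp macrophages, was at 427, 203 and 390.1 and 1025, 1048 and 549, with no overlap but not called (log2FC = 1.35 ± 0.62, edgeR adjusted p = 0.0681). It was called higher under TMM and median-of-ratios scaling, in DESeq2 and with the 6 samples alone. Under TMM scaling 8 genes of this list were higher and none lower. *Cd36* and *Card9* overlapped between the groups and were not called, at 0.22 and -0.60, of which *Cd36* was called higher under TMM scaling (0.57) and *Card9* was at 0.02 without Sham replicate 2.

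Fc receptors and their signalling adaptors, which take up antibody-coated particles, rose in 7 of 10, with 2 lower and 1 not called. *Fcgr1*, the high-affinity IgG receptor, was at 75.4, 53.9 and 59.1 in Sham and 1391, 1444 and 858 in RCI+MSC-EVs, a 19.4-fold rise (log2FC = 4.28 ± 0.52, edgeR adjusted p = 9.82e-06). Its signalling chain *Fcer1g* was at 436, 480.2 and 409 and 3418, 3691 and 3306 (log2FC = 2.98 ± 0.26, edgeR adjusted p = 5.88e-07). *Fcgr4* rose by 2.68, *Fcgr3* by 2.67, the recycling receptor *Fcgrt* by 2.40 and the adaptor *Tyrobp* by 2.11. The low-affinity receptors resemble each other in sequence, so cross-reading between *Fcgr3* and *Fcgr2b* is possible. *Fcgr2b*, the inhibitory receptor and the Fc gamma receptor of B cells, fell by 1.70 (770.3, 767 and 1226 in Sham, 265, 367 and 217 in RCI+MSC-EVs). The kinase *Syk*, shared by B cells and myeloid cells, was lower (-0.93) but not called under TMM scaling (-0.55).

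Complement genes had the highest median of any list. Of 16 tested, 10 were higher, 2 lower and 4 not called, while 11 further members had too few counts to test. In the classical pathway, *C1qb*, a chain of the initiating C1q that macrophages secrete, was at 1329, 666 and 2159 in Sham and 13329.8, 14335 and 10259 in RCI+MSC-EVs (log2FC = 3.19 ± 0.50, edgeR adjusted p = 8.33e-05). *C1qa* rose by 2.69, the proteases *C1ra* and *C1s* by 2.84 and 2.67, and *C2* by 2.90. The probe for *C4a*, whose near-identical copy *C4b* leaves the source uncertain, gave 34.8, 24.5 and 49.1 in Sham and 340.2, 321 and 313 in RCI+MSC-EVs (log2FC = 3.12 ± 0.33, edgeR adjusted p = 3.02e-06). In the alternative pathway, properdin (*Cfp*) was at 1049, 514 and 1190.3 and 7794, 7627 and 6274 (log2FC = 2.97 ± 0.41, edgeR adjusted p = 2.75e-05), and *Cfb*, its convertase subunit, rose by 2.18. *C6*, of the membrane attack complex, rose by 2.94. *C3*, the hub of the cascade, was at 147, 162 and 216 in Sham and 299.9, 322 and 520.4 in RCI+MSC-EVs, apart but above the threshold (log2FC = 1.12 ± 0.49, edgeR adjusted p = 0.056), and so was *Serping1*, the C1 inhibitor (1.20). Both were called under TMM scaling. The 2 lower genes were *Cr2*, also in the B cell list, and *Cd55*, which protects cells from complement (-1.68). *Cd55* was not called with TMM scaling (-1.22), without Sham replicate 2 (-1.11), or without RCI+MSC-EVs replicate 1 (-1.50) or 2 (-1.59).

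Inflammatory chemokines and their receptors held the largest single change. Of 19 tested, 8 were higher, 5 lower and 6 not called. *Ccl24*, an eosinophil-attracting chemokine of macrophages, was at 11.6, 22.0 and 25.3 in Sham and 3049, 4313 and 1792 in RCI+MSC-EVs. Every treated sample was far above every Sham sample, and the rise was 157-fold (log2FC = 7.29 ± 0.997, edgeR adjusted p = 2.59e-05), on Sham raw counts of only 14, 9 and 33. *Ccr3*, its receptor, was at 146, 58.8 and 53.8 and 1597, 1799 and 1005 (log2FC = 4.07 ± 0.74, edgeR adjusted p = 0.000293), with a log2FC of 4.71 without Sham replicate 1. *Ccl2*, which recruits monocytes, was at 2.49, 4.90 and 5.38 and 30.2, 12.6 and 47.9 and was apart at very low Sham counts (log2FC = 2.84 ± 0.96, edgeR adjusted p = 0.0174). Its call was lost in limma with a pseudocount of 10 (1.40), and without RCI+MSC-EVs replicate 3 (2.36) or Sham replicate 1 (2.51). The interferon-induced *Cxcl9* rose by 1.87, and the receptor *Cx3cr1* of resident phagocytes by 1.45. Lower genes were lymphocyte receptors and a lymphocyte product: *Ccr6* (-3.47), *Cxcr6* (-1.95), *Cxcr3* (-1.31) and *Ccl5* (-1.46), together with the monocyte receptor *Ccr2* (-1.18), which overlapped between the groups and was not called under TMM scaling (-0.71), without Sham replicate 2 (-0.38), or without RCI+MSC-EVs replicate 1 (-1.06) or 3 (-1.13). *Ccr6* was at 340.4, 311 and 274 in Sham and 25.2, 37.9 and 20.2 in RCI+MSC-EVs.

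**Figure D5:**
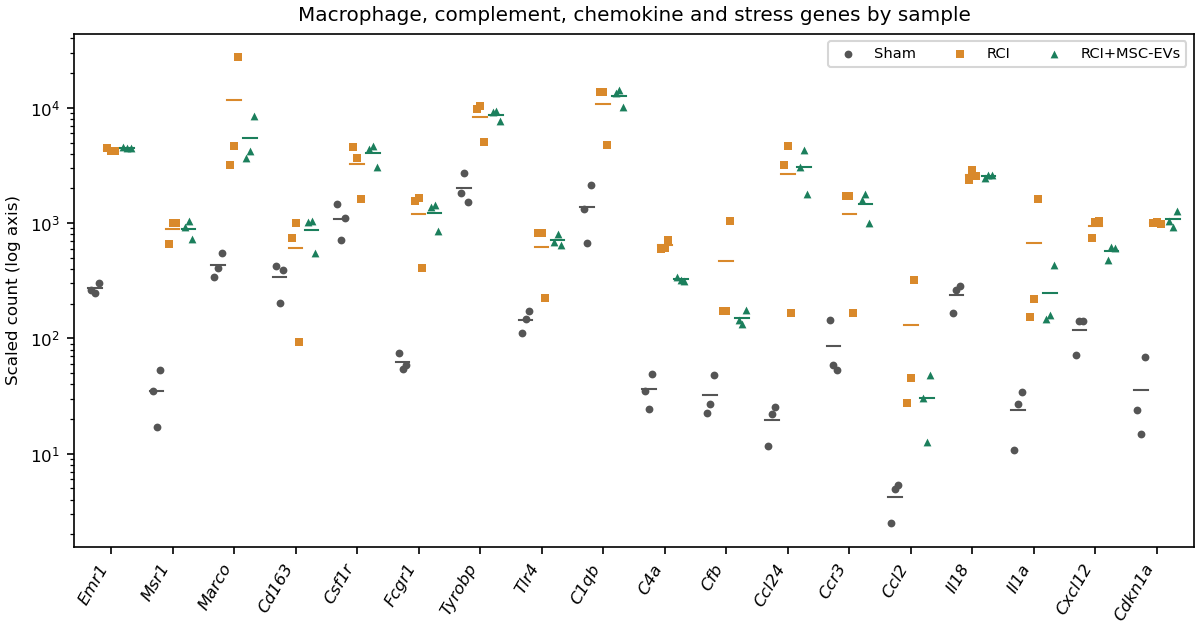
Scaled counts (log axis) of macrophage, Fc receptor, complement, chemokine and stress genes in each sample of Sham, untreated RCI and RCI+MSC-EVs, with a line at the mean. In all 18 genes the RCI+MSC-EVs samples lie above the Sham samples, and the untreated RCI group is wider in several because its replicate 3 stands apart (*Ccl24*, *Ccr3*, *Cfb*, *Ccl2*).

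Toll-like receptors and their partners, which sense microbial products, were higher in 7 of 12 and lower in 2. *Tlr4* was at 112, 147 and 174 in Sham and 682, 798 and 645 in RCI+MSC-EVs (log2FC = 2.30 ± 0.42, edgeR adjusted p = 0.000318), and its partner *Ly96*, which encodes MD-2, rose by 2.42. *Tlr8* rose by 2.62, *Tlr3* by 2.07 and the shared adaptor *Myd88* by 1.19. *Tlr9*, a DNA sensor strong in B cells, fell by 0.88, and *Tlr1* by 1.43, of which *Tlr9* was not called under TMM scaling (-0.61) or without RCI+MSC-EVs replicate 2 (-0.71). *Tollip*, an inhibitory adaptor, was not called (-0.08, 95% interval -0.49 to 0.33).

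In the IL-1 family the calls went both ways. Of 16 tested, 5 were higher, 5 lower and 6 not called. *Il18*, a cytokine that needs caspase-1 to mature, was at 167, 265 and 287 in Sham and 2480.0, 2597 and 2615 in RCI+MSC-EVs, the treated samples nearly equal (log2FC = 3.42 ± 0.24, edgeR adjusted p = 1.74e-07). *Il1a* was at 10.8, 26.9 and 34.6 and 148, 159.8 and 435, highest in RCI+MSC-EVs replicate 3 (log2FC = 3.37 ± 0.82, edgeR adjusted p = 0.00237), and without that sample its log2FC was 2.68. *Casp1* rose by 0.99. Both chains of the IL-18 receptor fell, *Il18r1* by 2.29, or 1.24 without Sham replicate 2, and *Il18rap* by 2.47, but *Il18rap* was at 109, 855 and 195 in Sham and was not called without Sham replicate 2 (log2FC = -1.15, edgeR adjusted p = 0.0588). *Sigirr*, an inhibitory family member, fell by 2.75. *Il1b* was at 58.0, 345 and 89.8 in Sham and 104, 116 and 202 in RCI+MSC-EVs, overlapping and not called (-0.18, 95% interval -2.05 to 1.69). Without Sham replicate 2 its log2FC was 0.93, also not called.

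Interferon-inducible and nucleic acid sensing genes centred near 0. Of 22 tested, 5 were higher, 4 lower and 13 not called, with a median of 0.09, which rose to 0.42 under TMM scaling with 9 higher and 3 lower. *Ifi204*, a DNA sensor of the p200 family, whose close relatives leave the probe's target uncertain, was at 44.7, 39.2 and 63.0 in Sham and 1182, 1146 and 865 in RCI+MSC-EVs, a 21.3-fold rise (log2FC = 4.41 ± 0.35, edgeR adjusted p = 3.82e-07). *Irf7*, the transcription factor that amplifies type I interferon, rose by 2.39, the tetherin gene *Bst2* by 2.04 and the RNA sensor *Ifih1* by 2.04. *Bst2* was at 317, 301 and 213 and 1209, 1032 and 1171. *Irf3*, *Ifnar1* and *Tbk1*, which encode signalling parts rather than induced products, fell by 1.91, 1.38 and 1.29. *Ddx58* and *Ifit2*, also inducible, were not called, at 0.05 and 0.19, *Ddx58* being called higher under TMM scaling (0.41), and *Mx1* was at 130.05, 522 and 176 in Sham and 142, 128 and 138 in RCI+MSC-EVs. *Mx1* was not called (-0.998) and was at -0.17 without Sham replicate 2, but it was called lower without Sham replicate 1 (-1.34) or 3 (-1.24).

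p53 response and apoptosis genes did not share a direction either, with 5 higher, 3 lower and 5 not called of 13. *Cdkn1a*, the cell cycle inhibitor p21 that p53 switches on after DNA damage, was at 24.0, 14.7 and 68.3 in Sham and 1033, 918 and 1278 in RCI+MSC-EVs, a 28.2-fold rise (log2FC = 4.82 ± 0.41, edgeR adjusted p = 5.87e-07). Sham replicate 3 was the highest Sham sample, and without it the log2FC was 5.71. *Bax*, a p53 target that opens mitochondria, was at 209, 610.05 and 284 and 923, 1003 and 995 (log2FC = 1.42 ± 0.30, edgeR adjusted p = 0.000845). *Trp53* itself fell by 1.68 and the caspase gene *Casp2* by 1.89. *Fas*, another p53 target, was not called (-0.23, 95% interval -0.85 to 0.39).

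NF-kB genes were lower in 13 of 18 tested and higher in none, with a median of -1.15. *Nfkbia*, the inhibitor that NF-kB itself induces, was at 1184, 808 and 1113 in Sham and 203, 259 and 325 in RCI+MSC-EVs (log2FC = -1.98 ± 0.34, edgeR adjusted p = 0.000167). The adaptors *Traf5* and *Traf1*, both prominent in lymphocytes, fell by 2.24 and 1.74, and the kinase subunits *Ikbkg* and *Ikbkb* by 1.68 and 1.47. Without Sham replicate 2 *Traf1* fell by 1.15 and *Ikbkb* by 0.74, both still called. The subunits *Rela* (-0.79) and *Nfkb1* (-0.62) fell by less, and *Nfkb1* was not called under TMM scaling (-0.30). *Tnfaip3*, a feedback inhibitor, was at 277, 407 and 524 and 127, 143 and 364 and was not called (-0.93, or -1.58 without RCI+MSC-EVs replicate 3). Under TMM scaling 11 members were lower and none higher.

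JAK-STAT genes were lower in 8 of 15 tested, higher in 1 and not called in 6. Under TMM scaling 6 were lower and 4 higher, and without Sham replicate 2 there were 7 lower and 3 higher. *Stat5a*, which carries signals of IL-2 and IL-7, was at 243, 539 and 245 in Sham and 84.8, 105 and 96.8 in RCI+MSC-EVs (log2FC = -1.83 ± 0.29, edgeR adjusted p = 9.34e-05). *Jak3*, the kinase of the common gamma chain, fell by 1.88, or 1.004 without Sham replicate 2, *Stat4*, the factor downstream of IL-12, by 1.86, and *Jak1* by 1.48. Feedback inhibitors did not move alike. *Socs1* was at 142, 238 and 170.5 in Sham and 357, 436 and 400.2 in RCI+MSC-EVs, with no overlap (log2FC = 1.13 ± 0.22, edgeR adjusted p = 0.000416). *Socs3* was lower (-1.30), but not called under TMM scaling (-0.87), without Sham replicate 2 (-0.69), or without RCI+MSC-EVs replicate 1 (-1.08) or 3 (-1.31). *Cish* overlapped between the groups, at 39.8, 90.6 and 46.1 and 84.0, 97.7 and 90.5 (log2FC = 0.67 ± 0.31, edgeR adjusted p = 0.0682). It was called higher without Sham replicate 2 (log2FC = 1.08, edgeR adjusted p = 0.00283), under TMM and median-of-ratios scaling (1.05 and 1.03) and in DESeq2 (0.71).

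Cytokine receptor genes were mostly not called, with 2 higher, 6 lower and 10 not called of 18, and 3 higher and 4 lower under TMM scaling. Besides *Il7r*, the IL-17 receptor chain *Il17ra* fell by 1.68 and the common gamma chain *Il2rg* by 0.93, the last not called under TMM scaling (-0.55). *Il13ra1* rose by 1.30, but was not called without RCI+MSC-EVs replicate 2 (1.06), Sham replicate 1 (1.04) or Sham replicate 3 (1.15). *Il10ra* and *Crlf2* lay nearest to 0, at -0.08 and 0.04. In the TNF superfamily, 3 were higher, 2 lower and 6 not called of 11. The receptor *Ltbr*, which stromal and myeloid cells carry, was at 28.2, 63.7 and 43.0 in Sham and 365, 421 and 297 in RCI+MSC-EVs (log2FC = 3.05 ± 0.32, edgeR adjusted p = 2.69e-06). Its lymphocyte-derived ligand *Ltb* was at 3218, 2163 and 2070.3 and 718, 754 and 716 (log2FC = -1.77 ± 0.28, edgeR adjusted p = 8.96e-05). Neither gene overlapped between the groups. *Tnfrsf11a*, which encodes RANK, rose by 2.15, and *Tnf* itself was not called (1.08, 95% interval -0.25 to 2.41).

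All 7 MAP kinase genes tested were called, 5 lower and 2 higher. *Map4k1*, a haematopoietic kinase that restrains antigen receptor signals, was at 584, 843 and 644 in Sham and 102, 101 and 89.4 in RCI+MSC-EVs (log2FC = -2.82 ± 0.21, edgeR adjusted p = 2.41e-07). *Mapk11* fell by 3.23, *Map4k2* by 2.77 (2.16 without Sham replicate 2) and *Map4k4* by 1.93, whereas *Mapk14*, which encodes p38 alpha, rose by 0.63.

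Integrins, vessel and matrix genes, TGF-beta genes and colony-stimulating factor genes were small lists with calls in both directions. Of 9 integrins, 2 were higher and 3 lower: *Itga4* and *Itgal*, which lymphocytes use to leave the blood, fell by 1.78 and 1.42, *Itgb1* rose by 1.07, and the platelet integrin *Itga2b* was at 100.2, 379.7 and 221 in Sham and 428, 891 and 725 in RCI+MSC-EVs (log2FC = 1.57 ± 0.51, edgeR adjusted p = 0.0146). The integrin counts became 4 higher and 2 lower both under TMM scaling and without Sham replicate 2. The call of *Itga2b* was lost without RCI+MSC-EVs replicate 2 (1.32) or Sham replicate 1 (1.19). Of 9 endothelial, stromal and matrix genes, 3 were higher and 2 lower. *Pdgfb*, a growth factor of platelets and vessels, was at 38.1, 100.4 and 31.5 and 282, 368 and 400.2 (log2FC = 2.71 ± 0.36, edgeR adjusted p = 2.01e-05), with a log2FC of 3.33 without Sham replicate 2. *Vcam1*, an adhesion molecule also carried by red pulp macrophages, was at 1347, 412 and 1266 and 4712, 4209 and 2605 (log2FC = 1.93 ± 0.68, edgeR adjusted p = 0.0217), and without Sham replicate 2 it was not called (log2FC = 1.56, edgeR adjusted p = 0.0859), nor without RCI+MSC-EVs replicate 1 (1.75). *Icam2* fell by 2.19. *Pecam1*, found on endothelium, platelets and leukocytes, overlapped between the groups and was not called (-0.09). Of 5 TGF-beta genes, *Tgfb1* was higher and *Smad3* lower (-1.12), and of 4 colony-stimulating factor genes, *Csf1r* and *Csf2rb* (0.81) were higher, *Csf3r* lower and *Csf1* not called (0.05, or 0.71 without Sham replicate 2). *Csf2rb* was not called without RCI+MSC-EVs replicate 2 (0.65).

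A set of 12 genes was taken from those discussed in the paper. The paper names *Map4k1*, *Ccr9*, *S100a8*, *S100a9* and *Cxcl12* as genes lowered by RCI in spleen and improved by the vesicles. It discusses *Nfkbia*, *Cxcr4*, *Socs1*, *Cish* and *Stat5a* for irradiated, vesicle-treated mice, and *Camp* for irradiated mice against Sham. It also describes a rise of *Pparg* with treatment. All were thus picked from this series, only in part from the samples compared here, and their directions are not independent evidence. Of the 12, 8 were lower than Sham in RCI+MSC-EVs (*Camp*, *Nfkbia*, *Cxcr4*, *Stat5a*, *Map4k1*, *Ccr9*, *S100a8* and *S100a9*), 3 were higher (*Socs1*, *Cxcl12* and *Pparg*) and *Cish* was not called, although *Cish* was called higher under TMM scaling and without Sham replicate 2 (1.08). The untreated RCI group, compared with the same Sham samples, had log2FC of -6.60 for *Camp*, -4.36 for *Cxcr4*, -3.54 for *Map4k1* and -3.30 for *Ccr9*, where RCI+MSC-EVs had -4.23, -3.55, -2.82 and -2.65. The value of *Camp* in RCI+MSC-EVs rested on replicate 3, and without it was -6.10. For *Cxcl12* the values were 3.000 in untreated RCI and 2.27 in RCI+MSC-EVs, and for *Socs1* 0.64 and 1.13. In these values *Cxcl12* was thus above Sham in untreated RCI, where the paper describes it as reduced. The 2 comparisons share their Sham samples, and only the direct test that follows bears on a difference between them.

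Set directly against untreated RCI, RCI+MSC-EVs had no called gene of 426 in edgeR's test and none with DESeq2, with 14 genes (5 higher, or 1.17%, and 9 lower, or 2.11%, together 3.29% of those tested) at an unadjusted p under 0.05 and 46 (10.8%) without overlap. The smallest adjusted p was 0.848. The 3 genes with the smallest p were *Map4k1*, *C4a* and *Cxcr4*. *Map4k1* was at 58.3, 67.1 and 52.4 in untreated RCI, each below the RCI+MSC-EVs values of 102, 101 and 89.4 (log2FC = 0.72 ± 0.21, edgeR adjusted p = 0.848). *C4a* was at 599, 609 and 712 in untreated RCI and 340.2, 321 and 313 in RCI+MSC-EVs (log2FC = -0.98 ± 0.29, edgeR adjusted p = 0.848). *Cxcr4* was at 103, 165 and 144 and 164, 252 and 307 (log2FC = 0.81 ± 0.26, edgeR adjusted p = 0.848). For *Camp* the direct log2FC was 2.37 (95% interval 0.48 to 4.25, edgeR adjusted p = 0.939), but without RCI+MSC-EVs replicate 3 it was 0.49, with a 95% interval of -1.10 to 2.09.

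Against the irradiated, vesicle-treated group without burn (WBIR+MSC-EVs), edgeR also called no gene, with 43 genes (35 higher, or 8.22%, and 8 lower, or 1.88%, together 10.1% of those tested) at an unadjusted p under 0.05, 127 (29.8%) without overlap and a smallest adjusted p of 0.226. Replicate 1 of WBIR+MSC-EVs had the lowest total of the series, 90127, and a reference factor of 0.340. Its neutrophil markers summed to 9150, against 2371 and 1744 in replicates 2 and 3. Without this sample edgeR still called no gene. With all samples, DESeq2 called 2 genes, *Ccl9* and *Prkcd*. *Ccl9*, a macrophage chemokine, was at 469.6, 199 and 195 in RCI+MSC-EVs and 61.8, 61.2 and 50.04 in WBIR+MSC-EVs, with a log2FC of 2.33 ± 0.52 (edgeR adjusted p = 0.226). Of the same 3 RCI+MSC-EVs samples against Sham, at 87.0, 105 and 223, *Ccl9* was not called (1.05), except without Sham replicate 3 (1.59, edgeR adjusted p = 0.0201). The next genes by p were *Cxcr6* (-1.12) and *Ccr7* (1.01).

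The 148 genes not called against Sham were not shown to equal it. For 47 of them the 95% interval of the log2FC lay within 1 of 0, so a change of 2-fold or more was outside the interval, and for the other 101 it was wider. Those with narrow intervals included *Ctnnb1* (0.0088, -0.33 to 0.35), *Prkcd* (-0.38, -0.76 to -0.0024), *Stat3* (0.18, -0.20 to 0.56), *Hif1a* (-0.18, -0.56 to 0.20) and *Tollip* (-0.08, -0.49 to 0.33). *Ctnnb1*, which encodes beta-catenin, was at 1274, 1455 and 1279 in Sham and 1313, 1385 and 1333 in RCI+MSC-EVs. These intervals depend on the scaling: under TMM scaling *Stat3* was called higher (0.50), and with the 7 least varying reference genes *Prkcd* was called lower (-0.53), as it was in DESeq2 (-0.38).

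Of the 121 genes left out for low counts, 11 had a mean of at least 20 scaled counts in Sham or RCI+MSC-EVs, 38 did not overlap between the groups, and 25 had means under 10 in both. *Il11ra1* was at 48.0, 110.2 and 36.1 in Sham and 12.6, 11.5 and 10.6 in RCI+MSC-EVs, and *Ccbp2* and *Clec5a* were also lower without overlap. *Fcer1a*, the IgE receptor chain of mast cells and basophils, was at 2.48, 7.35 and 9.98 in Sham and 26.9, 19.5 and 14.9 in RCI+MSC-EVs. *Xcr1*, a receptor of cross-presenting dendritic cells, was at 9.11, 19.6 and 2.30 in Sham and 27.7, 27.6 and 28.7 in RCI+MSC-EVs. These genes were not tested. *Btnl2*, *Cd109*, *Clec4a4*, *Il1rl1* and *Kit* overlapped between the groups.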

How the data were processed

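Spleen RNA of 15 samples in 5 groups of 3 was counted by the authors on the nCounter Mouse Immunology Panel. The authors deposited unnormalised counts, whole numbers for each gene that precede the nSolver normalisation in their methods, with totals of 90127 to 598872 per sample. None of the 8415 values was 0. Cartridges, run dates and control probes were not used here. Of 561 gene names, 545 were current RefSeq symbols of GRCm38.p6, 14 were older symbols and 2 were unmatched.

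Counts were scaled to the geometric mean of the 14 reference genes. Endogenous genes averaging 20 counts or more across the samples (426 genes) entered the quasi-likelihood test of edgeR 4.0.16 in R 4.3.3, with 1 coefficient per group, all 15 samples, 10 residual degrees of freedom and two-sided p-values adjusted by Benjamini-Hochberg over the 426 genes. Genes were called at an adjusted p under 0.05. Values after ± are standard errors (SE), obtained as the size of the log2FC over the root of the F statistic, and intervals are 95%. Replicates varied with a dispersion of 0.110 shared by all genes (coefficient of variation 33.1%), so at these depths the 3 samples per group limit precision for all but the lowest genes. The script was tested on simulated data.

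The members and lists were chosen with earlier results of these data known. The rule for named genes took the 12 largest rises and the 12 largest falls without overlap between the groups, up to 4 called and 2 least different members of each list, 12 genes discussed in the paper, the 8 narrowest intervals within 1 of 0, genes left out at 20 counts or more in either group, and other list members as such. Not every gene so chosen is printed, and some genes are not reported here. Alternatives were TMM, median-of-ratios and 7-gene reference scaling, no filter or a mean of 50, DESeq2 1.42.0, limma 3.58.1 with a pseudocount of 10 or 1, the 6 samples alone, a replicate block, and leaving out each replicate.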

Additional observations from a re-analysis of the deposited data

How the results depend on the processing

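The number of genes called against Sham was 278 and lay between 259 (mean of at least 50 counts) and 300 (DESeq2) when the scaling, filter or tool was changed, and between 255 (without RCI+MSC-EVs replicate 1) and 285 (without Sham replicate 3) when 1 sample was left out. The filter and tool also change how many genes are tested, so these counts are not on 1 base. The 278 were of 426 genes, the 259 of 375 and the 300 of 422. With no filter 288 of 547 were called. The division into higher and lower depended on the scaling: 102 and 176 with all reference genes, 97 and 192 with the 7 least varying, 137 and 149 with TMM and 135 and 150 with median-of-ratios scaling. Without Sham replicate 2 it was 111 and 155. Of the 175 named genes that were called, 158 were called in the same direction under each of the 15 or 16 alternatives that gave them an adjusted p, and 17 lost the call under at least 1, while 23 of the 62 named genes that were not called gained one. The called list members *Bcl2*, *Cfd*, *Cxcl10*, *Tlr2* and *Tmem173* are not in these numbers: they were left undescribed after their calls were seen to end when 1 sample was left out, so the share of stable calls is favoured by that choice. The adaptor gene *Lcp2* turned from -0.29, not called, to 0.77 without Sham replicate 2, and its range when 1 sample was left out was -0.64 to 0.77. Against WBIR+MSC-EVs, DESeq2 called 2 genes where edgeR called 0, and every other alternative called 0. The cause was not tested. Against RCI, all alternatives called 0. Of the list counts of higher and lower calls, 61 of 832 values under alternatives moved by over 1.5 times, most often under TMM or median-of-ratios scaling.

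Replicate numbers are shared by the groups, and the deviations of same-numbered RCI+MSC-EVs and Sham samples from their group means correlated at 0.12, 0.25 and 0.01 across genes. The median correlations with the other-numbered Sham samples were lower, at -0.02, -0.17 and -0.0049. These values do not settle whether the numbers pair the samples, and the main fit did not pair them. With the replicate number as a block, 277 genes were called, 103 higher and 174 lower. Depth limits the genes with few counts, such as *Ccl2* and *Plau* in Sham.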

Other observations

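Of the tested genes, 105 were in none of the lists, and 67 of these were called against Sham, 23 higher and 44 lower. They are described here by size, chosen after their values were seen. Among the higher ones, *Hfe*, which regulates iron uptake, was at 242, 171 and 318 in Sham and 2286, 2423 and 1585 in RCI+MSC-EVs (log2FC = 3.10 ± 0.43, edgeR adjusted p = 3.09e-05), while *Tfrc*, the transferrin receptor of dividing and erythroid cells, fell from 429.9, 657 and 489.9 to 87.4, 100.004 and 102 (log2FC = -2.44 ± 0.30, edgeR adjusted p = 9.84e-06). No sample overlapped in either gene. The platelet genes *Gp1bb* and *Ppbp* rose by 2.79 and 2.39, and *Ppbp* was at 263, 833 and 589.8 in Sham and 1844, 3848 and 3102 in RCI+MSC-EVs. The lysosomal proteases *Ctss* and *Ctsc* rose by 2.17 and 2.15. *Il15*, a cytokine that sustains NK cells and memory CD8+ T cells, was at 15.7, 24.5 and 14.6 and 126, 77.0 and 96.8 (log2FC = 2.51 ± 0.51, edgeR adjusted p = 0.000646). The adhesion receptor *Cd44* rose by 1.96, *Xbp1*, a factor of secretory cells, by 1.52, and *Cebpb*, a myeloid transcription factor, by 1.62.

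Among the lower genes outside the lists, *Il12a*, the p35 subunit of IL-12, was at 67.9, 247 and 184 in Sham and 14.3, 14.9 and 17.0 in RCI+MSC-EVs (log2FC = -3.41 ± 0.54, edgeR adjusted p = 8.33e-05). *Dpp4*, the peptidase CD26 of T cells, fell by 3.40, and *Gpr183*, the oxysterol receptor that positions B cells, by 2.64. *Cd74*, the invariant chain that escorts MHC class II molecules, was at 49425, 11787 and 30172 and 4745, 4577 and 4391 (log2FC = -2.74 ± 0.51, edgeR adjusted p = 0.000348). The lymphoid transcription factors *Ets1* and *Ikzf1* fell by 2.15 and 1.22, and *Gfi1*, a factor of stem cells and granulocyte precursors, by 2.48. *Plaur*, the urokinase receptor, fell by 2.75, whereas its ligand *Plau* rose by 2.43 from Sham raw counts of only 9, 1 and 14.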
